A study of Mus musculus with 238 samples.

Results

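The perilipins are a family of 5 genes, Plin1 to Plin5, and their rows were taken by symbol from a count table of 21076 gene rows. The family was chosen by the measured diet response of Plin4 in these data, in liver and across brain, so the diet values of Plin4 are given here as a description, without a test. The other 4 members were added by family and not by their values. All 5 symbols had a row, and 4 of them (Plin2, Plin3, Plin4 and Plin5) held enough counts to be tested in at least some tissues. Plin1 did not pass the filter on low counts in any tissue.

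Perilipins are proteins that coat the surface of lipid droplets, the organelles in which cells keep triglycerides and cholesterol esters. The coat controls access of lipases, chiefly adipose triglyceride lipase (Pnpla2) and its activator Abhd5, to the stored lipid. Plin1 and Plin4 are known mainly from adipocytes, Plin5 from tissues that oxidise much fat such as heart, muscle and liver, and Plin2 and Plin3 from nearly all cell types. Plin2 is the main droplet protein of hepatocytes, and lipid droplets in brain are found in glia, ependymal cells and vessels.

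RNA was measured by bulk sequencing in C57BL/6JN mice, all 19 months old. In the diet experiment, 5 female mice were dietary restricted (aDR in brain labels, DR in liver labels) and 4 females were fed freely (AL, ad libitum). Brain gave 131 libraries of 15 regions there, and liver gave 9. In the plasma experiment, 3 male mice were injected behind the eye with plasma of young mice (YMP) and 4 males with saline (PBS). These mice gave 98 brain libraries of the same 15 regions. No animal carried a transgene or deletion in the labels. Sex and experiment cannot be told apart, so levels are tested within an experiment only. Where AL females and PBS males are set side by side, this is a description. Levels are given as CPM (the count divided by the library total in mega-counts, M). Changes are log2 differences between treated and control mice, with a standard error (SE). A gene was called when its p-value, adjusted by the Benjamini-Hochberg method over all genes tested, was under 0.05.

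Library totals ran from 0.606 to 32.4 M counts around a median of 8.44 M, and 6 of 238 libraries held fewer than 2 M. One library differed from its group in makeup: in pons of aDR mouse 67 the 10 most abundant genes took 23.4% of the counts, against 5.72% to 7.12% in pons of the other mice on either diet. The liver libraries held 72042 to 100295 CPM summed over 6 hepatocyte markers, and the brain libraries at most 4.28 CPM. Summed markers of choroid plexus epithelium, averaged over the brain libraries of a mouse, varied widely. They ran from 93.4 to 2139 CPM in aDR and from 91.5 to 1050 CPM in AL mice. How much plexus each library labelled choroid plexus held was not tested. In bulk tissue, fewer cells of a type and less RNA per cell cannot be told apart. Neither sequencing batches nor sampling hours are given in the labels.

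On the mouse genome (GRCm38, GENCODE vM21) Plin4 lies at chr17:56100591-56109803 and Plin5 at chr17:56111601-56117596, both on the minus strand and 1797 bases apart. Plin3 lies on the same strand at chr17:56277476-56292873, Plin2 at chr4:86648386-86670060 and Plin1 at chr7:79720218-79732903. The end of Plin4 shares 17 exon bases, 0.294% of its exon length, with Hdgfl2 on the opposite strand. The libraries carry no strand information, so reads in that stretch could be counted for either gene. Hdgfl2 was not called with diet, with a log2 change of 0.33 in liver (edgeR adjusted p 0.369) and 0.10 across brain (limma adjusted p 0.108).

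Plin4 and Plin5 are neighbours with different values under diet across brain. The 250 bases before their start sites are therefore shown, written 5′ to 3′ on the gene's strand (RefSeq, GRCm38.p6). Capitals mark the letters TATAA, a motif chosen after the windows had been read.
Plin4, chr17:56109783-56110032, minus strand: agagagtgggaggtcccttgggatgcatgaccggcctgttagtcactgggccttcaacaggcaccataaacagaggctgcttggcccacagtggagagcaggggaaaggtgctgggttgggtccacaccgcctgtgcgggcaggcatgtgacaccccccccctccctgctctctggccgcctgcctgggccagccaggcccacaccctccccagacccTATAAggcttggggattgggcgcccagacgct
Plin5, chr17:56117549-56117798, minus strand: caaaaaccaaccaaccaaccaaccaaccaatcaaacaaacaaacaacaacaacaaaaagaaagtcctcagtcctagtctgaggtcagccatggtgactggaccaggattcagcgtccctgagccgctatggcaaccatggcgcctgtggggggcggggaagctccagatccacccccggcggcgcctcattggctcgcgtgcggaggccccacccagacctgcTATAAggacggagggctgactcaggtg
TATAA began at position -32 from the start in Plin4 and -27 in Plin5. It was present on either strand in 22.8% of 32851 promoter windows of the same length. A second window of Plin5 and those of Plin1, Plin2 and Plin3 did not hold it. The glucocorticoid response element (AGAACA, any 3 bases, TGTTCT; 0.00913% of windows), its first arm AGAACA alone (16.1%), the direct repeat of PPAR binding (AGGTCA, any base, AGGTCA; 0.0335%) and the E-box CACGTG (6.02%) were searched on both strands. None of them was found in the windows of the 5 perilipins.

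Under diet, Plin4 RNA stood higher in restricted mice in liver and in each of 15 brain regions. In liver, Plin4 measured 6.81, 13.5, 12.2, 8.28 and 9.51 CPM in DR mice 61, 62, 64, 65 and 67. In the freely fed mice 63, 66, 68 and 69 it measured 0.888, 1.77, 2.49 and 1.15 CPM. The lowest restricted liver was thus above the highest freely fed one. The group means were 10.1 ± 2.76 CPM (SD, n = 5) and 1.58 ± 0.715 CPM (SD, n = 4). The log2 change between them was 2.80 (SE 0.31), or 6.96-fold.

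**Figure D1:**
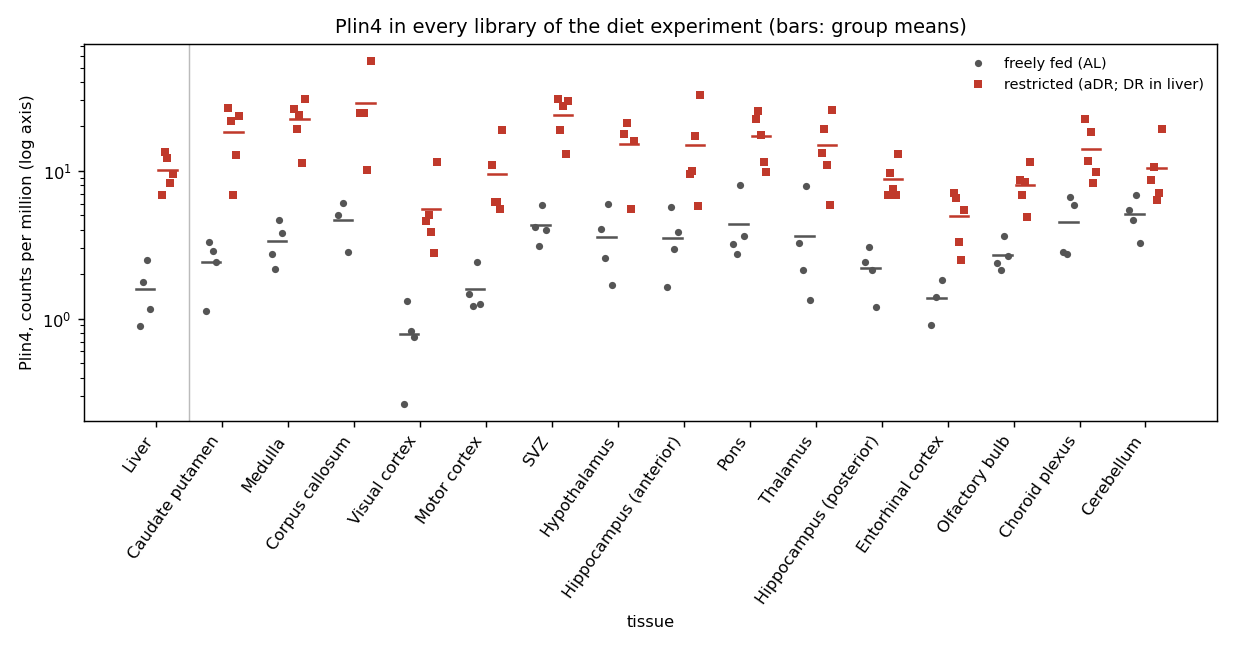
Plin4 in CPM (log axis) in each library of the diet experiment, by tissue, with grey circles for freely fed and red squares for restricted mice and bars at the group means. Restricted libraries lie above all freely fed ones in liver and 12 brain regions, and overlap with them in cerebellum, hypothalamus and thalamus.

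In brain, the estimate ran from 1.02 (SE 0.31) in cerebellum to 2.93 (SE 0.38) in caudate putamen, or 2.03-fold to 7.63-fold. With 1 value per mouse over all its regions, the log2 change was 2.03 (SE 0.25). These mouse values, in log2 CPM, were 3.79, 3.68, 3.51, 2.83 and 4.17 in aDR mice 61, 62, 64, 65 and 67, and 1.32, 1.53, 2.05 and 1.35 in AL mice 63, 66, 68 and 69. Every restricted mouse was above every freely fed mouse. Of all genes tested, 0.922% were called across brain with diet, and for Plin4 nothing is read from that share because the same contrast chose it.

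Caudate putamen held the largest estimate. Plin4 there measured 26.8, 21.6, 6.89, 12.8 and 23.6 CPM in aDR mice 61, 62, 64, 65 and 67, against 1.13, 3.28, 2.87 and 2.43 CPM in AL mice 63, 66, 68 and 69. The restricted mice spread widely, and the lowest of them, mouse 64, was above the highest freely fed mouse. In medulla the restricted values were 26.2, 19.2, 23.9, 11.3 and 30.9 CPM and the freely fed values 2.72, 2.18, 4.63 and 3.80 CPM in the same order of mice, a log2 change of 2.76 (SE 0.31).

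The highest single value of Plin4 in the series came from corpus callosum, a white matter tract. It measured 24.6, 24.6, 10.2 and 55.3 CPM in aDR mice 61, 62, 65 and 67, against 5.00, 6.03 and 2.82 CPM in AL mice 63, 66 and 69 (log2 change 2.76, SE 0.59). The groups did not overlap, though mouse 67 alone set much of the restricted mean of 28.7 ± 19.0 CPM (SD, n = 4). Without mouse 67 the change in corpus callosum was 2.21. In SVZ, the label of the zone beside the lateral ventricle, restricted mice measured 13.1 to 30.4 CPM and freely fed mice 3.10 to 5.91 CPM (log2 change 2.49, SE 0.29).

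In freely fed mice the 3 cortical regions held the lowest Plin4 levels. In visual cortex Plin4 measured 4.61, 5.00, 3.86, 2.78 and 11.6 CPM in aDR mice 61, 62, 64, 65 and 67 and 0.266, 1.31, 0.820 and 0.757 CPM in AL mice 63, 66, 68 and 69. The freely fed values there rest on 1, 10, 3 and 10 counts, so the change of 2.76 (SE 0.46) carries a large counting error. In motor cortex the change was 2.55 (SE 0.39), from 1.59 ± 0.569 CPM (SD, n = 4) in freely fed to 9.56 ± 5.68 CPM (SD, n = 5) in restricted mice. Entorhinal cortex went from 1.38 ± 0.470 CPM (SD, n = 3) to 4.96 ± 2.002 CPM (SD, n = 5), a change of 1.70 (SE 0.42).

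In 3 regions the Plin4 values of the groups overlapped. In cerebellum, restricted mice measured 8.67, 10.7, 6.30, 7.11 and 19.2 CPM and freely fed mice 5.44, 4.65, 6.91 and 3.27 CPM. In hypothalamus, aDR mice 62, 64, 65 and 67 measured 17.7, 21.2, 5.54 and 16.0 CPM and AL mice 63, 66, 68 and 69 measured 4.03, 2.56, 5.97 and 1.69 CPM. In thalamus the restricted values were 13.2, 19.2, 10.96, 5.91 and 25.9 CPM and the freely fed ones 3.24, 2.13, 7.92 and 1.33 CPM. In each of the 3 regions the freely fed mouse that reached into the restricted range was mouse 68. The groups were apart in the other 12 of 15 regions, and 1.39% of all gene and region pairs tested had every restricted value above every freely fed one. Nothing is read from that comparison for Plin4, which was chosen by these values.

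The other regions lay between these. The change was 2.13 (SE 0.51) in anterior hippocampus, 1.97 (SE 0.29) in posterior hippocampus, 2.08 (SE 0.38) in pons, 1.65 (SE 0.22) in olfactory bulb and 1.63 (SE 0.37) in choroid plexus. Differences between regions in the size of the Plin4 change were not tested, because the diet values chose the gene.

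Restricted mice kept a partial order from region to region. Mouse 65 had the lowest restricted Plin4 value in 12 of 15 regions and mouse 67 the highest in 9 of 15. Pons, where the library of mouse 67 differed in makeup, was the 1 region in which mouse 67 was lowest, at 9.80 CPM against 11.5 to 25.5 CPM in the other restricted mice. Without that library the change across brain was 2.05. In liver mouse 67 was the third highest of 5 for Plin4.

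Adipocytes are the classical site of Plin4, and their defining markers were nearly absent. Adipoq, which encodes adiponectin, reached at most 5 counts in any library and was detected in 24 of 238 libraries. Lep reached at most 2 counts and Cfd at most 1. The summed level of 8 adipocyte markers over brain was 16.5 to 19.7 CPM in aDR and 17.5 to 17.9 CPM in AL mice, most of it from Lipe, a lipase also made in brain. In liver this sum was 17.7 to 28.6 CPM in DR and 22.9 to 27.4 CPM in AL mice. The part of adipocytes in the Plin4 values was not tested.

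Endothelial markers differed in part between the diets, and blood markers ranged more widely among restricted mice. Of 6 endothelial markers, 3 were called lower across brain in restricted mice by limma, while 0.922% of all genes tested were called. These were Cldn5 (-0.48, limma adjusted p 0.0402), Tek (-0.37, adjusted p 0.00735) and Flt1 (-0.26, adjusted p 0.0382). The endothelial markers were named after their values had been seen, so nothing is read from that count. The summed level of all 6 was 179 to 195 CPM in aDR and 184 to 223 CPM in AL mice. Summed blood markers ran from 9.25 to 37.2 CPM in aDR and from 10.1 to 12.01 CPM in AL mice. The part of either in the Plin4 values was not tested.

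Plin1, the adipocyte coat protein that holds back lipolysis until it is phosphorylated, was at or near 0 throughout. It had no count in 92 of 131 brain libraries of the diet experiment, in 71 of 98 of the plasma experiment and in 7 of 9 liver libraries. The highest count in any library was 4. At this depth no difference in Plin1 was detectable, and it was left out of all tests.

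Plin2, the droplet protein that rises and falls with stored lipid in many cells, was not called with diet. In liver it measured 233, 170, 163, 266 and 452 CPM in DR mice 61, 62, 64, 65 and 67 and 401, 277, 366 and 291 CPM in AL mice 63, 66, 68 and 69. The groups overlapped, since 4 of 5 restricted livers lay below all freely fed ones and mouse 67 above them. The means were 257 ± 117 CPM (SD, n = 5) and 334 ± 59.6 CPM (SD, n = 4), and the log2 difference was -0.29 (edgeR adjusted p 0.901). Without mouse 67 the change was -0.67, with an edgeR adjusted p of 0.259.

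**Figure D2:**
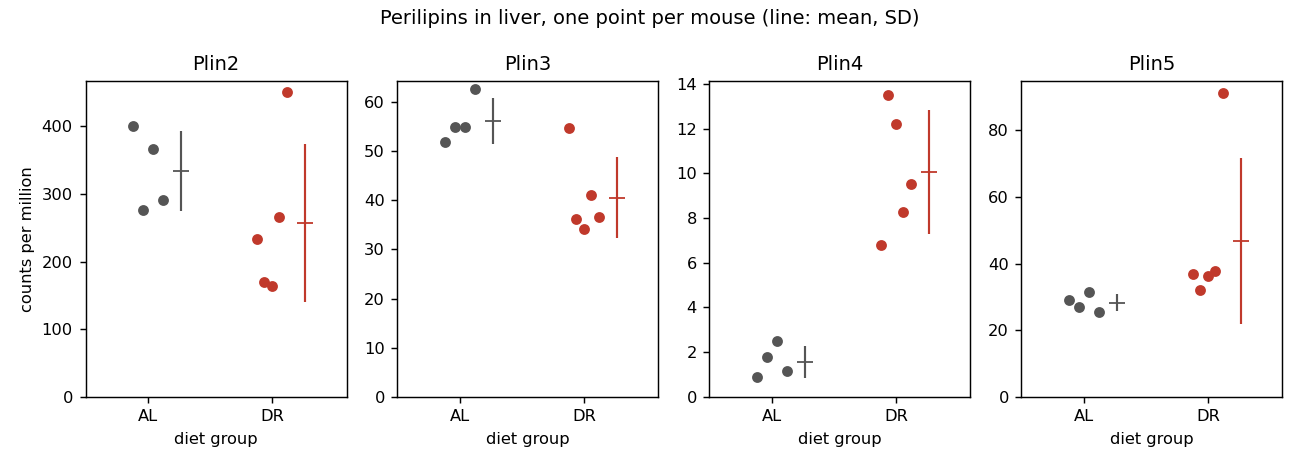
Plin2, Plin3, Plin4 and Plin5 in CPM in liver, with 1 point per mouse, AL mice in grey and DR mice in red, and the mean with its SD beside each group. Plin4 and Plin5 lie above all freely fed values in all 5 restricted mice, and Plin2 and Plin3 overlap between the groups.

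Across brain the Plin2 estimate was -0.095 (SE 0.062, limma adjusted p 0.492), lower in 12 and higher in 3 of 15 regions. None of these regions was called, against 0.0525% of all gene and region tests. The lowest estimate was in choroid plexus, the tissue that makes cerebrospinal fluid, at -0.49 (unadjusted edgeR p 0.0425, adjusted p 0.9995). Plin2 measured 8.89, 5.22, 8.63, 8.18 and 4.75 CPM there in aDR and 7.75, 10.3, 11.98 and 10.7 CPM in AL mice, and the groups overlapped. The plexus content of these libraries was not tested.

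Plin3, a protein that moves from the cytosol to newly formed droplets and also takes part in endosomal sorting, was not called with diet either. In liver it measured 54.7, 36.2, 34.2, 41.1 and 36.6 CPM in DR mice and 51.9, 54.98, 54.9 and 62.8 CPM in AL mice. Of the restricted livers, 4 were below all freely fed ones and mouse 61 was within their range. The log2 change was -0.41 (SE 0.16, edgeR adjusted p 0.439, unadjusted p 0.0271). Of all genes tested in liver, 0.220% were called.

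In brain the Plin3 estimate had the opposite sign, 0.10 (SE 0.082, limma adjusted p 0.600), higher in 11 and lower in 4 of 15 regions, and none was called. Unadjusted edgeR p-values were under 0.05 in hypothalamus (0.41, p 0.0211, adjusted p 0.986), motor cortex (0.29, p 0.0220, adjusted p 0.381) and olfactory bulb (-0.18, p 0.0438, adjusted p 0.355). In hypothalamus Plin3 measured 36.7, 34.1, 24.1 and 25.1 CPM in aDR and 22.7, 23.5, 21.0 and 23.0 CPM in AL mice, with no overlap. For Plin3 this was the 1 region of 15 with every restricted value above every freely fed one. Of all gene and region pairs tested, 1.39% had this, and nothing is read from 1 region. The liver change minus the brain change of each mouse was -0.53 (limma adjusted p 0.407) for Plin3, -0.31 (adjusted p 0.931) for Plin2 and 0.66 (adjusted p 0.614) for Plin5. None of these was called, against 0.0881% of all genes tested.

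Plin5, which ties droplets to mitochondria in cells that oxidise fat, lay higher in the restricted livers without a call. It measured 36.9, 32.1, 36.4, 37.7 and 91.3 CPM in DR mice 61, 62, 64, 65 and 67 and 29.1, 27.0, 31.6 and 25.5 CPM in AL mice 63, 66, 68 and 69. All 5 restricted livers were above all 4 freely fed ones, as were 1.55% of genes tested in liver. The log2 change was 0.83 (SE 0.34, edgeR adjusted p 0.454, unadjusted p 0.0302), and without mouse 67 it was 0.36 (adjusted p 0.382).

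In brain Plin5 was low. It passed the filter in 7 of 15 regions with diet and was called in none of them. The estimate across brain was 0.0026 (SE 0.15, limma adjusted p 0.996). In SVZ, where its level was highest, Plin5 measured 8.35 ± 2.06 CPM (SD, n = 5) in aDR and 7.95 ± 0.5003 CPM (SD, n = 4) in AL mice, a change of 0.12 (edgeR adjusted p 0.991). Between Plin4 and Plin5, neighbours on the same strand, the estimates across brain were thus 2.03 and 0.0026, given side by side without a test. In liver both estimates were above 0, at 2.80 and 0.83.

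For the 3 members other than Plin4, a test of whether the diet change differed between regions gave an edgeR adjusted p of 1 for each, while 0.0128% of all genes were called in that test.

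**Figure D3:**
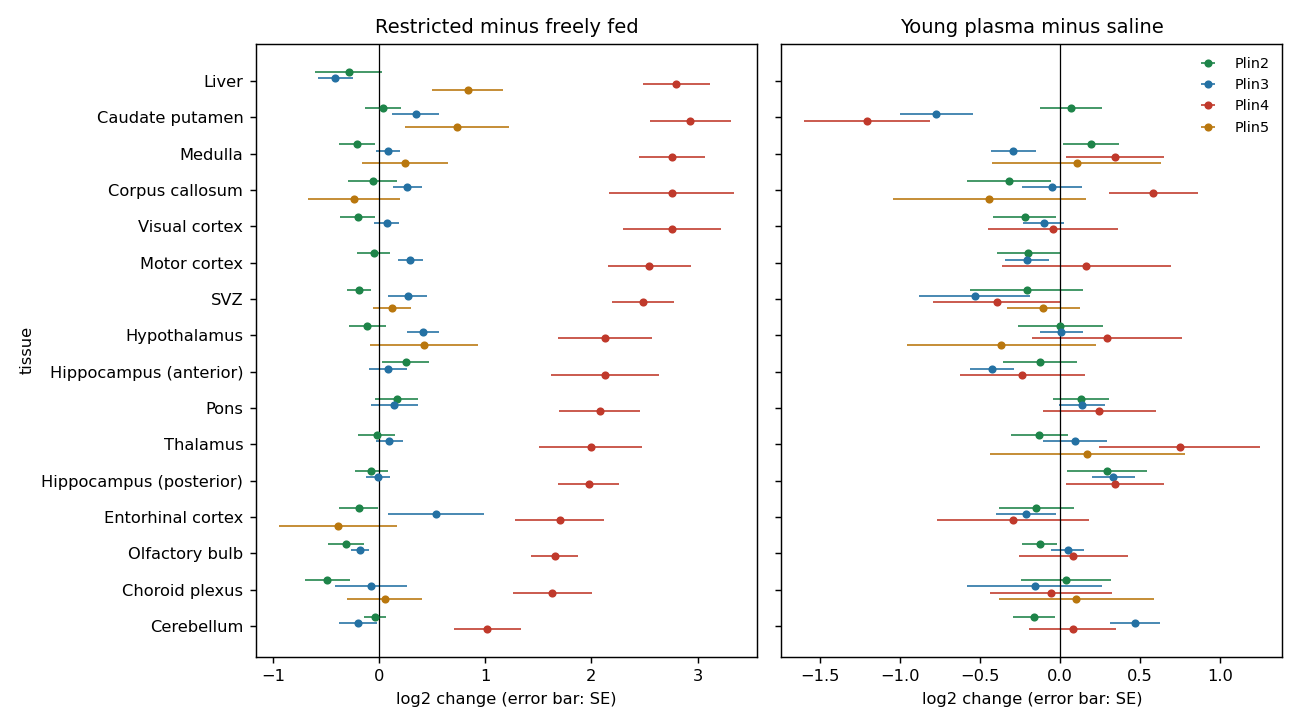
Log2 changes with SE of Plin2 (green), Plin3 (blue), Plin4 (red) and Plin5 (ochre) by tissue, restricted minus freely fed on the left and young plasma minus saline on the right, with tissues in the order of the Plin4 diet change after liver. The Plin4 diet estimates run from 1.02 to 2.93 in brain and the plasma estimates of all members fall on both sides of 0.

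Young plasma addressed the same genes in other animals, and this experiment was not used to choose the family. None of the members was called. Across brain the change was -0.064 (SE 0.25, limma adjusted p 0.952) for Plin4, -0.032 (SE 0.095, adjusted p 0.937) for Plin2, -0.15 (SE 0.12, adjusted p 0.783) for Plin3 and -0.16 (SE 0.17, adjusted p 0.831) for Plin5. Of all genes, 0.00% were called across brain with plasma and 0.0127% of gene and region tests were called within regions. The difference between the diet and the plasma change was not tested, because the diet values chose Plin4.

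Plin4 mouse values over brain, in log2 CPM, were 0.920, 1.82 and 1.95 in YMP mice 73, 77 and 81 and 1.54, 1.58, 1.43 and 1.95 in PBS mice 72, 76, 80 and 84. YMP mouse 73 lay below the PBS range, mouse 77 within it and mouse 81 at its upper end. Without YMP mouse 73 the change was 0.27 (limma adjusted p 0.898). The estimate was higher in 9 and lower in 6 of 15 regions. In caudate putamen, the region with the largest diet estimate, Plin4 measured 1.47, 1.48 and 2.09 CPM in YMP and 2.37, 5.82, 2.93 and 5.26 CPM in PBS mice. The YMP mice were below all PBS mice there, with an estimate of -1.21 (SE 0.39, edgeR adjusted p 0.474, unadjusted p 0.0131).

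Plin4 lay the other way in corpus callosum, where YMP mice 77 and 81 measured 6.57 and 9.29 CPM and PBS mice 76, 80 and 84 measured 4.66, 5.74 and 5.67 CPM (0.58, edgeR adjusted p 0.680). Over the 15 regions, all YMP values were above all PBS values in 1 region for Plin4 and in 1 for Plin3, against 4.82% of gene and region tests. All were below in 1 region for Plin4 and in 2 for Plin3, against 4.42%. Nothing is read from counts this small.

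For Plin3 the regions with an unadjusted edgeR p under 0.05 had changes of either sign. In caudate putamen it measured 28.7, 24.4 and 23.8 CPM in YMP and 39.6, 61.3, 44.6 and 29.5 CPM in PBS mice (-0.77, adjusted p 0.474). The change was -0.43 (adjusted p 0.683) in anterior hippocampus, 0.33 (adjusted p 0.9997) in posterior hippocampus and 0.47 (adjusted p 0.442) in cerebellum. A test of whether the plasma change of Plin3 differed between regions gave an edgeR adjusted p of 0.736, and 0.824% of all genes were called in it. Summed markers of choroid plexus epithelium also differed between the groups over brain, at 29.6 to 1083 CPM in YMP and 1249 to 3261 CPM in PBS mice. Summed oligodendrocyte markers had a median of 10222 CPM in YMP and 12218 CPM in PBS mice, with overlapping ranges. The part of either in these values was not tested.

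Among brain regions of control mice, each of the 4 measurable perilipins differed in level. The edgeR test between regions gave an adjusted p of 1.06e-17 for Plin2, 6.12e-16 for Plin3 and 3.06e-11 for Plin5 in AL mice, and 98.1% of all genes were called in that test. The AL mice were 1 arm of the contrast that chose Plin4, so its AL levels are given without a test. In PBS mice the adjusted p was 7.46e-11 for Plin2, 1.05e-14 for Plin3, 1.87e-04 for Plin4 and 1.24e-10 for Plin5, and 96.1% of genes were called. Differences between regions are thus the rule in this tissue, and the members are described by where they were high or low. Levels in choroid plexus are those of libraries with this label, whose plexus content was not tested.

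**Figure D4:**
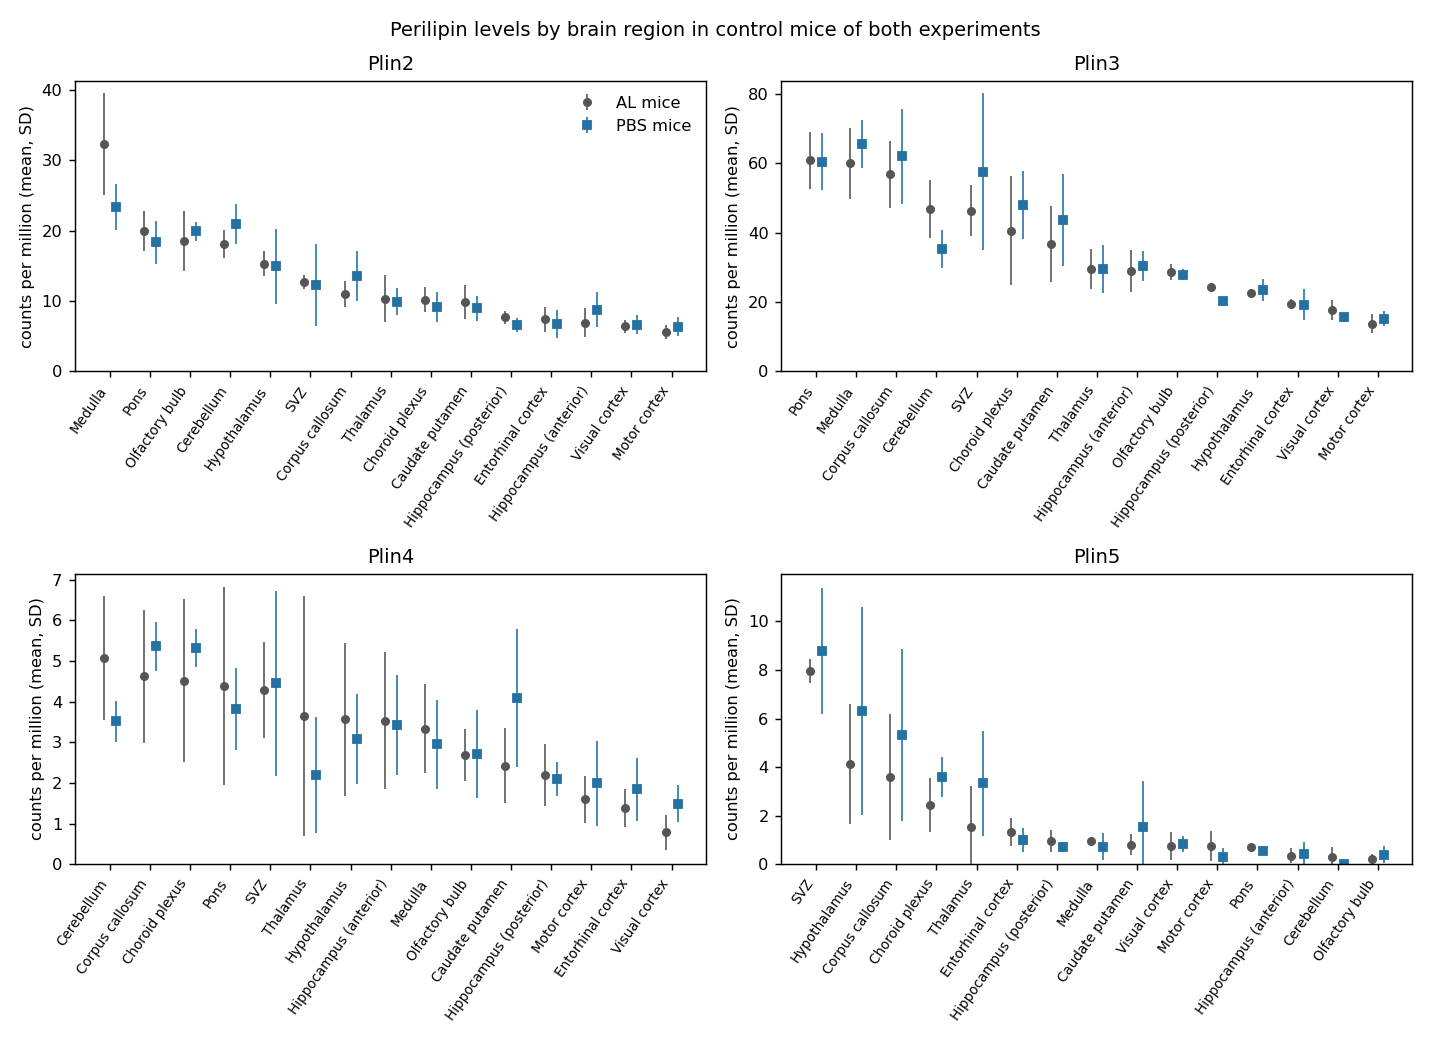
Mean level in CPM with SD in each brain region for Plin2, Plin3, Plin4 and Plin5, with AL mice as grey circles and PBS mice as blue squares and the regions ordered by the AL mean. Plin2 leads in medulla, Plin3 in pons, medulla and corpus callosum, and Plin5 in SVZ, while the Plin4 means run from 0.789 to 5.07 CPM in AL and from 1.49 to 5.36 CPM in PBS mice.

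Plin2 was highest in the hindbrain. Its level was 32.3 ± 7.25 CPM (SD, n = 4) in medulla, which exceeded the next region, pons, at 19.9 ± 2.88 CPM (SD, n = 4, edgeR adjusted p 0.00451). Olfactory bulb (18.5 CPM), cerebellum (18.1 CPM) and hypothalamus (15.3 CPM) followed, and no other pair of neighbours in the order passed the test. The order ran down through SVZ, corpus callosum, thalamus, choroid plexus, caudate putamen, posterior hippocampus, entorhinal cortex, anterior hippocampus and visual cortex to motor cortex at 5.68 ± 0.994 CPM (SD, n = 4). In PBS mice medulla was again first, at 23.4 ± 3.28 CPM (SD, n = 4), and did not differ from the second region, cerebellum (adjusted p 0.323).

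Plin3 was highest in the brainstem and in white matter. It stood at 60.9 ± 8.20 CPM (SD, n = 4) in pons, 60.0 ± 10.2 CPM (SD, n = 4) in medulla and 56.8 ± 9.75 CPM (SD, n = 3) in corpus callosum, which did not differ from each other. The step from corpus callosum to cerebellum (46.9 CPM) was the 1 pair of neighbours called (edgeR adjusted p 0.0480). SVZ, choroid plexus, caudate putamen, thalamus, anterior hippocampus, olfactory bulb, posterior hippocampus, hypothalamus and entorhinal cortex came next in that order. Visual cortex (17.7 CPM) and motor cortex (13.8 CPM) were lowest.

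Plin4 was low throughout control brains, and its highest regional mean was 6.43 times the lowest in AL and 3.61 times in PBS mice. In AL mice it was highest in cerebellum, at 5.07 ± 1.52 CPM (SD, n = 4), then corpus callosum (4.62 CPM), choroid plexus (4.51 CPM), pons (4.38 CPM) and SVZ (4.28 CPM). Thalamus, hypothalamus, anterior hippocampus, medulla, olfactory bulb, caudate putamen and posterior hippocampus followed. The 3 cortical regions were lowest, with motor cortex at 1.59 CPM, entorhinal cortex at 1.38 CPM and visual cortex at 0.789 ± 0.428 CPM (SD, n = 4).

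In PBS mice, which had no part in the choice of Plin4, corpus callosum (5.36 ± 0.603 CPM, SD, n = 3) and choroid plexus (5.32 ± 0.476 CPM, SD, n = 4) led. The same 3 cortical regions were again lowest, down to visual cortex at 1.49 ± 0.456 CPM (SD, n = 3). No neighbours in the PBS order differed by the edgeR test.

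Plin5 was highest in a few regions next to the ventricles. In AL mice its level was 7.95 ± 0.5003 CPM (SD, n = 4) in SVZ, 4.13 ± 2.48 CPM (SD, n = 4) in hypothalamus, 3.58 ± 2.59 CPM (SD, n = 3) in corpus callosum and 2.43 ± 1.11 CPM (SD, n = 4) in choroid plexus. Thalamus (1.53 CPM) and entorhinal cortex (1.32 CPM) followed, and the other 9 regions were under 1 CPM, down to olfactory bulb at 0.232 CPM. Neighbours in the order did not differ by the test. The step from SVZ to hypothalamus had an edgeR adjusted p of 0.0711. PBS mice had the same first 5 regions in the same order, from SVZ at 8.78 ± 2.60 CPM (SD, n = 4) to thalamus at 3.32 ± 2.16 CPM (SD, n = 4).

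Of 105 pairs of regions, edgeR called 71 for Plin2, 75 for Plin3 and 49 for Plin5 in AL mice, against 47.5% of all gene and pair tests. In PBS mice it called 50 for Plin2, 69 for Plin3, 29 for Plin4 and 55 for Plin5, against 41.5%. Plin4 thus had the fewest called pairs of the 4 members in PBS mice. The order of the 15 regional means was alike in AL and PBS mice, with a Spearman rho of 0.957 for Plin2, 0.961 for Plin3, 0.807 for Plin4 and 0.929 for Plin5, given as a description over regions that share mice.

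Levels of different perilipins were compared per length, as CPM divided by exon length in kilobases. Over the AL brain regions Plin3 took a median of 66.7% of the summed perilipin level, Plin2 24.8%, Plin5 5.16%, Plin4 3.87% and Plin1 0.0910%. In aDR brain the median share of Plin4 was 15.3% and that of Plin3 61.1%. Liver had another composition: in AL mice Plin2 held 76.8%, Plin3 11.99%, Plin5 10.96% and Plin4 0.221% of the sum. In DR liver Plin4 held 1.61% and Plin5 20.8%.

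Per length, Plin4 was the lowest of the 4 measurable members in liver of both diet groups. On the CPM per kilobase scale, Plin4 in liver went from 0.273 in AL to 1.74 in DR mice, while Plin2 stood at 95.0 and 73.1. In brain the median level of Plin4 over regions was 0.610 in AL and 2.60 in aDR mice, close to the Plin2 medians of 2.94 and 2.88 only in the restricted group.

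Between liver and brain of freely fed mice, Plin2 was higher in liver by a log2 difference of 5.81 (SE 0.074), Plin5 by 5.66 (SE 0.22) and Plin3 by 1.75 (SE 0.11). The edgeR adjusted p was 7.45e-53, 3.66e-30 and 1.34e-20, and 86.2% of all genes were called in this comparison. Libraries of the same mouse were treated as independent in it, so these SE and p-values can overstate the replication. With mouse as a replicate block the differences were 5.82 for Plin2, 5.65 for Plin5 and 1.76 for Plin3. For Plin4 the log2 difference was -0.0072 (SE 0.39), given without a test. All these differences were taken after TMM normalisation, and plain CPM placed liver lower against brain. In CPM, Plin3 stood at 56.1 in AL liver, within the range of AL brain region means of 13.8 to 60.9. Plin4 stood at 1.58 CPM in AL liver, against AL brain region means of 0.789 to 5.07 CPM. Equal levels of Plin4 in liver and brain are therefore not read from its difference.

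The genes that work with perilipins were examined as lists. Of 10 genes of the lipolysis machinery, 10 were tested and 0 were called with diet in liver by edgeR or across brain by limma. The medians were -0.13 and 0.018, against medians over all genes of 0.018 and -0.0062. Of all genes tested, 0.220% were called with diet in liver, 0.922% with diet across brain and 0.00% with plasma across brain. Nothing is therefore read from 0 calls in this list or in the droplet and PPAR lists that follow. Pnpla2, the lipase that perilipins guard, had an estimate of 0.35 across brain (SE 0.071, limma adjusted p 0.0602) and of 0.54 in liver (SE 0.35, edgeR adjusted p 0.740). Its activator Abhd5 stood at -0.0072 (limma adjusted p 0.939) and -0.19 (edgeR adjusted p 0.917).

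The 27 genes of droplet formation and triglyceride synthesis gave 0 calls among the 23 tested in liver and the 22 tested across brain. The shares of all genes called were 0.220% and 0.922%, and the medians of the list were 0.13 and -9.1e-04. The PPAR targets and fatty acid oxidation list holds genes switched on by fatty acids in liver during fasting. In liver 22 of its 25 tested genes had a higher estimate, with a median of 0.37 and 0 calls. Cpt1a, which admits fatty acids to mitochondria, stood at 0.85 (SE 0.27, edgeR adjusted p 0.285), Pdk4 at 0.93 (adjusted p 0.600), Angptl4 at 0.91 (adjusted p 0.203), Ppara at 0.50 (adjusted p 0.307) and Ppargc1a at 0.44 (adjusted p 0.598).

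Across brain the PPAR list had 17 higher and 6 lower estimates, 0 calls and a median of 0.042. There Cpt1a stood at 0.082, Pdk4 at 0.064, Angptl4 at 0.29, Ppara at 0.046 and Ppargc1a at 0.042, with limma adjusted p-values of at least 0.550. With plasma, 20 of 23 genes of this list had a lower estimate, with a median of -0.092 and 0 calls, and the lipolysis and droplet lists had 0 calls with medians of -0.028 and 0.0049.

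The glucocorticoid response list was the 1 list with called genes. With diet across brain, 20 of 20 tested genes had a higher estimate and 7 were called higher by limma, against 0.922% of all genes tested, with a median of 0.34. The 4 called genes with the largest change were Hif3a (1.09, SE 0.15, adjusted p 0.0233), Map3k6 (0.67, SE 0.080, adjusted p 0.0109), Zbtb16 (0.57, SE 0.090, adjusted p 0.0307) and Arrdc2 (0.53, SE 0.088, adjusted p 0.0329). In liver 12 of 17 tested genes had a higher estimate and 1 was called, against 0.220% of all genes tested, namely Zbtb16 (1.66, SE 0.22, edgeR adjusted p 0.0153). With plasma, 17 of 20 had a higher estimate, with a median of 0.26 and 0 calls. Earlier results of these data were known when the list was drawn up, so nothing is read from its counts against the shares of all genes.

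The genes most like each perilipin were sought by the Pearson correlation of deviations from the mean of a library's own region and treatment group, over 229 brain libraries and 14233 genes. Treatment means are removed in this measure, but differences among restricted mice in the size of a change remain in it. Libraries of the same mouse share an animal and libraries differ in depth, so the points are not independent and no p is given. For Plin4 the nearest genes were Arrdc3 (r = 0.60), Aldh6a1 (0.53), Pnpla2 (0.52), Ccdc152 (0.52) and C4b (0.52). For each of these genes, r with Plin4 was higher in the diet than in the plasma libraries. The genes were picked by r over both experiments together, with 131 diet and 98 plasma libraries. The median Plin4 count was also higher in diet libraries, at 44 against 26.5. Nothing is therefore read from this difference in r. In diet and plasma libraries r was 0.66 and 0.49 for Arrdc3, 0.65 and 0.32 for Aldh6a1, and 0.63 and 0.39 for Pnpla2. For Ccdc152 it was 0.65 and 0.30, and for C4b 0.60 and 0.38. Of the other perilipins, Plin3 had r = 0.32 with Plin4, Plin2 0.24 and Plin5 0.12.

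For Plin3 the values were higher, with Cd82 (r = 0.86), Tmem98 (0.86) and Gltp (0.84) nearest. The summed oligodendrocyte markers had r = 0.79 with Plin3 over libraries, and the 15 regional means had a Spearman rho of 0.914 in AL and 0.929 in PBS mice. Plin2 was nearest to Arpc1b (0.58), Gsn (0.58) and Msn (0.55), genes of the actin cytoskeleton and its link to the membrane. Plin5 was nearest to Dynlrb2 (0.67), Tekt1 (0.62) and Nme9 (0.61), genes of motile cilia, and had r = 0.63 with the summed ependymal markers, a list that holds Dynlrb2 itself. For Plin4 the summed marker lists with the highest r were those of adipocytes (0.38), oligodendrocytes (0.34), astrocytes (0.32) and ependymal cells (0.31). Most of the adipocyte sum over brain came from Lipe, which is also made in brain.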

How the data were processed

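All values come from the table of read counts that the authors deposited, with whole numbers for each gene in 238 libraries. Per the submitters' processing notes, Trim Galore 0.3.7, STAR 2.5.3a and GRCm38 were used, and DESeq2 is named there too. The counting program and annotation are not given in the sources used here. Per the labels' protocols, cDNA was made by Smart-Seq2 and libraries by Nextera XT, without strand information or molecular identifiers, so reads amplified by PCR are counted as separate reads.

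The labels give each library a region, a treatment and a mouse number, which set the groups. A number stands for 1 animal wherever it occurs, and no number is shared by treatments. Deviations from group means had a mean correlation of 0.044 within a mouse and of -0.0055 among mice in the diet experiment, and of 0.086 and -0.014 in the plasma experiment. Possible duplicates among replicates were checked with chi-square over genes of 20 counts or more. In 357 pairs it was at least 1.29 per degree of freedom, and each library was kept. Where a mouse lacked a library, it had no value in that region.

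Each comparison within a tissue used edgeR 4.0.16 in R 4.3.3, with its quasi-likelihood test, after filterByExpr (minimum count 10, minimum total count 15) and TMM normalisation. Across brain, each mouse gave 1 log2 CPM value per gene (prior count 2), made from the deposited counts by a fit on region and mouse, and these were compared with limma 3.58.1. Region by treatment terms, levels between regions and liver against brain were tested with edgeR, and liver minus brain changes with limma. Libraries of the same mouse were treated as independent in the tests between regions, of region by treatment and of liver against brain. For these, a fit with mouse as a block was an alternative. P-values were adjusted over all genes of a fit. DESeq2 1.42.0, RLE size factors, no filter, voom with and without a block on mouse and leaving out each mouse were alternatives. The scripts were tested on simulated counts with known changes. Between genes, levels were divided by the exon length of GENCODE vM21.

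The members, lists and markers were chosen with earlier results of these data known. The genes named were all 5 members, the genes nearest to each member by correlation among those with a mean of at least 1 CPM in brain (5 for Plin4 and 3 for the others), up to 4 called genes of each list by size, and 8 key genes of lipolysis and fatty acid oxidation, of which 1 is not reported here. Endothelial markers and Hdgfl2 were named after their values had been seen.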

Additional observations from a re-analysis of the deposited data

Results flagged for a closer look

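Values far from the rest of their group were sought in 147 groups of 4 or 5 values, by the gap of the highest or lowest value to its nearest neighbour over the whole range. This singled out 8 groups, and chance alone gives about 1 in 20. Plin5 in liver measured 91.3 CPM in DR mouse 67, against 32.1 to 37.7 CPM in the other 4 restricted mice. Plin4 in visual cortex measured 11.6 CPM in aDR mouse 67, against 2.78 to 5.00 CPM. Plin4 in pons measured 8.001 CPM in AL mouse 68, against 2.73 to 3.63 CPM, and Plin3 in thalamus measured 38.3 CPM in the same mouse, against 26.3 to 26.8 CPM. Plin2 in visual cortex measured 8.82 CPM in aDR mouse 64, against 5.19 to 5.67 CPM. In PBS mice, Plin3 in choroid plexus measured 33.3 CPM in mouse 84, against 51.0 to 54.6 CPM, and Plin2 in medulla measured 18.5 CPM in mouse 72, against 24.4 to 25.3 CPM. The Plin2 value over brain of AL mouse 63 was 3.33 log2 CPM, against 3.56 to 3.59 in the other 3 AL mice.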

How the results depend on the processing

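Over 62 results and their alternatives, no value that had a test crossed its threshold. The Plin4 diet changes have no test, and they moved by less than the spread between mice in liver, across brain and in each region. Across brain the change was 2.22 in voom with mouse as a replicate block and 1.89 to 2.22 with each mouse left out, and in liver 2.61 to 3.07. In 13 cases an alternative turned the sign of an estimate, each of a difference that was not called or was given without a test. The plasma change across brain of Plin4 was 0.0012 in voom with no replicate block and ran from -0.26 to 0.27 with each mouse left out, and that of Plin2 ran from -0.11 to 0.027. The plasma change of Plin5 was 0.0090 with mouse as a replicate block. The Plin5 diet change across brain was -0.031 with a prior count of 0.5 and -0.11 to 0.069 with each mouse left out. In voom this Plin5 change was 0.18 with mouse as a replicate block and 0.15 with no replicate block. In alternatives chosen after seeing the data, it was -2.7e-06 without choroid plexus and corpus callosum libraries and -0.025 without the pons library of mouse 67. Plin4 in AL liver minus brain was 0.081 with RLE size factors. With mouse as a replicate block, the number of region pairs called for Plin4 in PBS mice was 35. Low counts limit Plin1 everywhere, Plin5 in most brain regions and Plin4 in freely fed cortex, and intervals from counts would cover counting error only.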
